A study of Mus musculus with 75 samples.

Results

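Gap junctions let ions and small metabolites pass directly between neighbouring cells. Each channel joins a hemichannel of connexins in one membrane to a hemichannel in the next, whereas pannexins form channels that open to the outside of the cell and release ATP. In the cochlea, supporting cells (SCs) are joined into a network by connexin 26 (Gjb2) and connexin 30 (Gjb6), and this network is thought to carry potassium and glucose; mature outer hair cells (OHCs) are generally regarded as lying outside it. Mutations of both genes cause deafness. The 7 genes described here are the connexins Gjb2, Gjb6, Gja1, Gjb1 and Gjc3 and the pannexins Panx1 and Panx2, chosen by name as gap junction genes of 55291 genes in the count table. The question was which connexins of SCs were absent from each type of induced cell.

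The 75 cells were picked by hand one by one and sequenced as full-length cDNA, 1 library per cell, in 5 groups. The 17 WT_P30 OHCs were Tdtomato+ cells of Slc26a5 CreER/+; Ai9/+ mice at postnatal day 30, in which Cre sits in the gene of the OHC motor protein Prestin. The 16 WT_P60 SCs were Tdtomato+ cells, mainly pillar and Deiters' cells, of Fgfr3-iCreER+; Ai9/+ mice at postnatal day 60. The other 42 cells were taken, also at postnatal day 60, from mice that carried Slc26a5 DTR/+, Rosa26 CAG-LSL-Ikzf2/+, Fgfr3-iCreER+ and CAG-LSL-Atoh1+ together, in which tamoxifen switched on the transcription factors Atoh1 and Ikzf2 in Fgfr3-expressing SCs and diphtheria toxin then killed the OHCs. All mice received tamoxifen. The submitters divided these 42 Tdtomato+ cells into 15 SCs failing to become HCs, 16 nascent hair cells (nascent HCs) and 11 OHC-like cells by the hair cell gene Myo7a and by Prestin (Slc26a5), so these 2 genes are no result between the induced groups. No label says how many mice the cells came from, so p-values measure the spread between cells, some of which may share a mouse. WT_P30 OHCs and WT_P60 SCs also differed in age, and the WT groups lacked the toxin, so cell type, age and treatment cannot be told apart in comparisons between them. Each WT group also had a library series of its own, which held no induced cell (the series of the induced cells are given below). Library series and group therefore cannot be told apart in any comparison with a WT group.

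The cells had 4264780 to 22934062 counts each, and 3 counts, the floor used below, equalled 0.146 to 0.836 counts per 1000000 counts (CPM). Levels are CPM scaled by the trimmed mean of M-values (TMM), and a gene was called detected in a cell at 1 CPM of the total count or more. Atoh1, one of the driven genes, was detected in every induced cell, with medians of 5765 CPM in OHC-like cells, 4264 in nascent HCs and 2496 in failing SCs, and in 2 of 16 WT_P60 SCs and 1 of 17 WT_P30 OHCs. Slc26a5 was detected in 17 of 17 WT_P30 OHCs and in no WT_P60 SC. The SC marker Sox10 was detected in 15 of 16 WT_P60 SCs, 7 of 15 SCs failing to become HCs, 2 of 16 nascent HCs, 1 of 11 OHC-like cells and no WT_P30 OHC. Fgfr3, the SC gene whose promoter drove Cre, was detected in 16 of 16, 13 of 15, 16 of 16, 11 of 11 and 3 of 17 cells of these groups, and the SC gene Sox2 in 13 of 16, 13 of 15, 10 of 16, 4 of 11 and 0 of 17. Of these 3 SC markers, 3 were called lower in WT_P30 OHCs than in WT_P60 SCs by the test given below, and 0 were called in each induced group.

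Gjb2 and Gjb6 lie side by side on chromosome 14 of the GRCm38 mouse assembly, on the minus strand, at 57098600 to 57104702 and 57123303 to 57133611, with 18600 bases between them. Their exons cover 2406 and 2674 bases and overlap no exon of another gene in GENCODE M21. Their coding sequences were identical at 75.8% of 681 aligned bases, but no stretch of 50 bases of either transcript set occurred in another gene, so reads of that length can be assigned to one or the other. The 250 bases before the start of each gene are shown because the 2 genes are neighbours and were low in the same groups of cells. The sequences are from RefSeq (GRCm38.p6) and read 5′ to 3′ on the strand of the gene, chr14:57104703-57104952 for Gjb2 and chr14:57133612-57133861 for Gjb6. Capitals mark matches on either strand to the GC box GGGCGG and the E-box CANNTG.
Gjb2: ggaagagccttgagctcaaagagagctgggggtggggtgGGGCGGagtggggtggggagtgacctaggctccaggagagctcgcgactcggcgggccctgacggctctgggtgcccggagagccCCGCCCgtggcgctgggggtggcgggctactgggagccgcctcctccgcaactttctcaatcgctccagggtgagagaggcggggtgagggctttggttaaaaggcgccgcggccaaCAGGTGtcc
Gjb6: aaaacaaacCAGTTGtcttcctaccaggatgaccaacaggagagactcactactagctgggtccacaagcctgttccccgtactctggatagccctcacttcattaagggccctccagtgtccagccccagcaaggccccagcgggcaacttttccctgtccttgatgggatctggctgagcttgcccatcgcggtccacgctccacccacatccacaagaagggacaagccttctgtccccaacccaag

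The Gjb2 window held 2 GC boxes, beginning 211 and 126 bases before the start, and an E-box 9 bases before it. The Gjb6 window held no GC box and 1 E-box, 241 bases before the start. Of 32851 promoter windows of this length, 32.7% held a GC box and 66.2% an E-box. The windows of Gjb2 and Gjb6 were 69.2% and 56.8% G or C, against a median of 52.4% over all windows. The letters are a description of the windows, not binding sites.

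Gjb2 was present in every WT_P60 SC, at 281 CPM in the lowest cell, 654 in the median and 1186 in the highest. Among SCs failing to become HCs it ranged from 0 to 750 CPM with a median of 103, and 11 of 15 cells had it. In nascent HCs the lowest cell was at 0, the median at 0.125 and the highest at 15.9 CPM. In OHC-like cells the lowest and the median were 0 and the highest was 2.20 CPM. Of the WT_P30 OHCs, 16 had no count of Gjb2 and 1 cell had 48.9 CPM. Thus every WT_P60 SC lay above every nascent HC, OHC-like cell and WT_P30 OHC, while the failing SCs reached from nothing into the range of the WT_P60 SCs.

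Gjb6 followed the same order with wider gaps. In WT_P60 SCs its lowest, median and highest values were 170, 2187 and 4843 CPM. The lowest cell stood apart from the other 15, the next of which had 1157 CPM. SCs failing to become HCs ranged from 0 to 1288 CPM with a median of 62.2, and 10 of 15 had the gene. Nascent HCs reached at most 1.59 CPM and OHC-like cells at most 0.672 CPM, with medians of 0 in both. No WT_P30 OHC had a single count. Again every WT_P60 SC lay above all cells of those 3 hair cell groups. How many other genes separate the groups in this way was not counted.

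**Figure D1:**
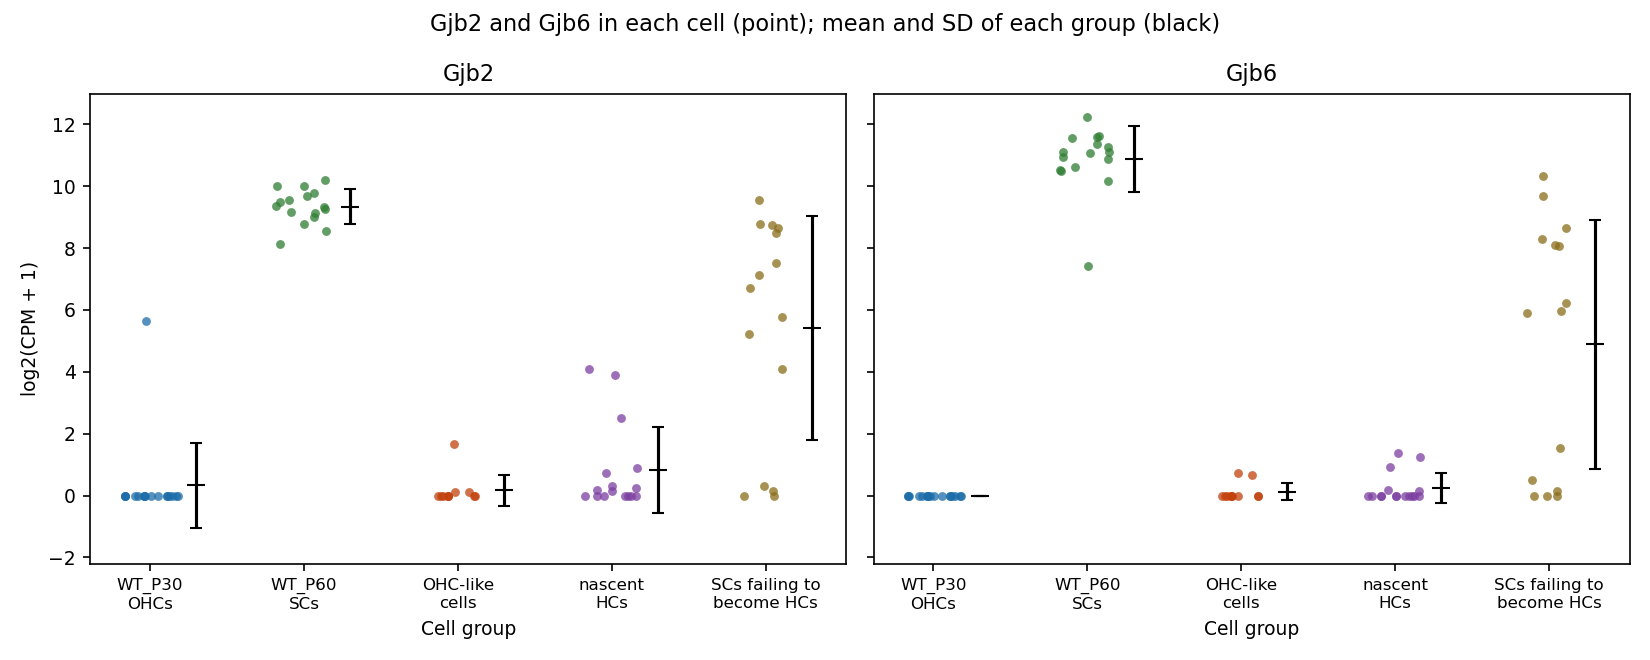
Levels of Gjb2 (left) and Gjb6 (right) as log2(CPM + 1) on the y axis for each of the 75 cells (points), by cell group on the x axis, with the mean and SD of each group in black. All 16 WT_P60 SCs lie above every WT_P30 OHC, OHC-like cell and nascent HC, and the 15 SCs failing to become HCs spread from 0 to 750 CPM of Gjb2 and from 0 to 1288 CPM of Gjb6.

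The other 5 members were absent or nearly so in all 5 groups, including the WT_P60 SCs. Gjb1 (connexin 32, known from myelinating Schwann cells and liver) and Panx2 had no count in any of the 75 cells. Gja1 (connexin 43, widespread in astrocytes, heart and fibroblasts) had 76 counts (10.1 CPM) in 1 OHC-like cell, 53 counts (5.27 CPM) in 1 SC failing to become HC, and 1 count in another. Gjc3 (connexin 29, a connexin of myelinating glia) had 14 counts (1.86 CPM), all in the OHC-like cell that also held Gja1. Panx1, the widely expressed pannexin, had 3, 2 and 1 counts in 1 OHC-like cell, 1 nascent HC and 1 failing SC. For each of these 5 genes 0 of 16 WT_P60 SCs were positive, which allows a share of up to 20.6% of such cells (exact Clopper-Pearson interval, 95%). These 5 genes therefore gave no SC level that could be lost, and none passed the filter for testing. The intervals and floors given here cover counting error only, and it was not tested whether these transcripts were captured less well.

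Among the 15 other listed connexins and pannexins, 6 had no count in any cell and none was detected in more than 1 WT_P60 SC. Over the 16 WT_P60 SCs, Gjb2 and Gjb6 together had 335468 counts and the other 20 genes listed had 12. Gjd3 reached 14.6 CPM in OHC-like cells, 3 of 11 of which had it, and 8.67 CPM in the 1 nascent HC that had it. It was not detected in a WT cell and did not pass the filter for testing. Markers of glia were not absent from these groups: their summed level over 3 genes ranged from 0 to 171 CPM in OHC-like cells, 0 to 145 in nascent HCs, 0 to 65.5 in failing SCs, 0 to 44.2 in WT_P60 SCs and 0 to 71.5 in WT_P30 OHCs. Of the 3, 2 were detected in OHC-like cells, 2 in nascent HCs, 2 in failing SCs, 1 in WT_P60 SCs and 1 in WT_P30 OHCs. Mbp, a myelin gene of the 3, was detected in 9 of 11 OHC-like cells, 11 of 16 nascent HCs, 2 of 15 failing SCs and no WT cell. Their part in the few Gjd3, Gjc3 and Gja1 counts was not tested.

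**Figure D2:**
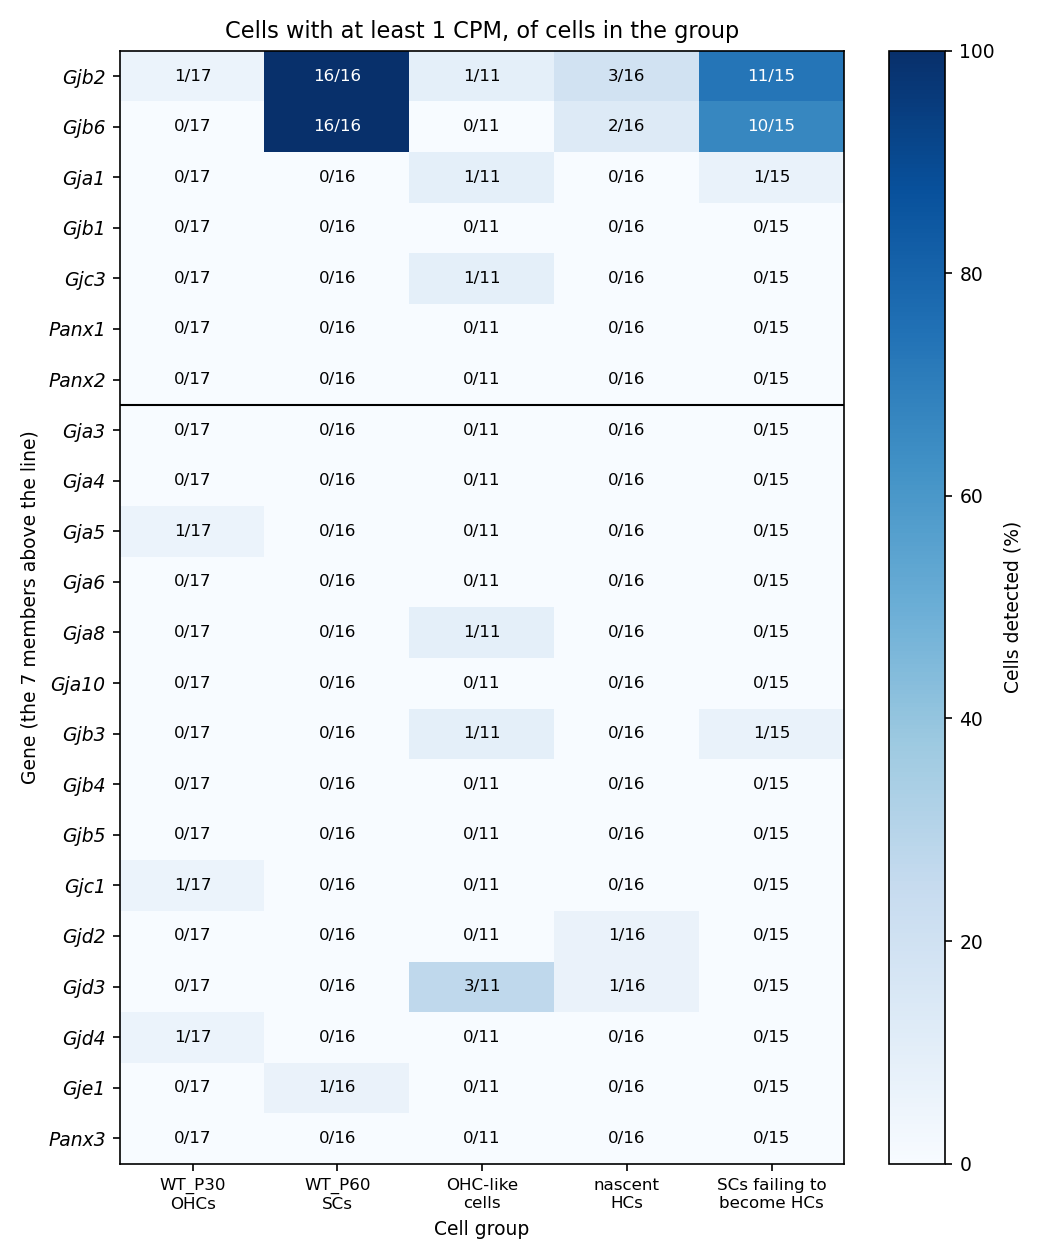
Number of cells with at least 1 CPM of each gene, of all cells in the group, for the 7 members (above the line) and 15 other connexins and pannexins (below it), with the share of cells as the colour from 0 to 100%. Only Gjb2 and Gjb6 fill the column of WT_P60 SCs, at 16 of 16 cells each, and both fall to 1 and 0 of 11 OHC-like cells and to 3 and 2 of 16 nascent HCs.

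The 2 connexins were compared per length of transcript, as transcripts per 1000000 (TPM) over the exon length, since CPM favours longer genes. In WT_P60 SCs Gjb2 averaged 772 ± 274 TPM and Gjb6 2223 ± 1028 TPM (SD, n = 16). Gjb6 was above Gjb2 in 15 of 16 of these cells, with a median ratio of 2.66 and a range of 0.346 to 6.33. In SCs failing to become HCs the means were 191 ± 213 TPM for Gjb2 and 192 ± 275 TPM for Gjb6 (SD, n = 15). Of these 15 cells, 9 had both genes, 2 had Gjb2 alone, 1 had Gjb6 alone and 3 had neither. In the 9 cells with both, the median ratio of Gjb6 to Gjb2 was 0.976, with a range of 0.00924 to 6.72, and 5 had less Gjb6 than Gjb2. The ratio was not tested, because the cells were picked for having both genes.

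**Figure D3:**
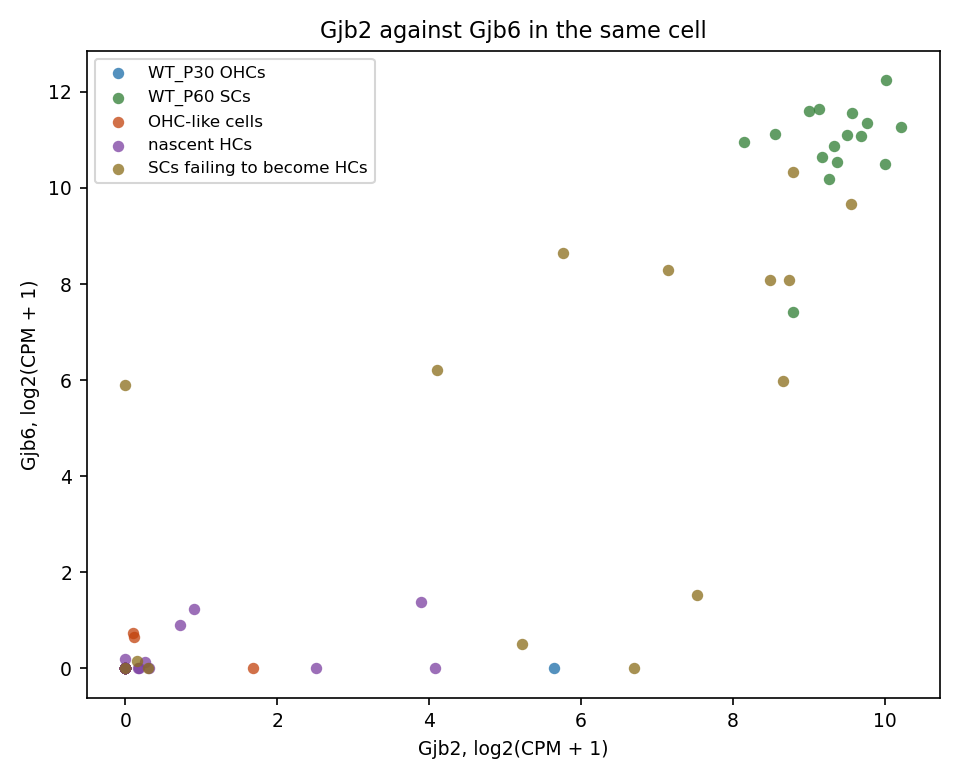
Gjb2 (x axis) against Gjb6 (y axis), both as log2(CPM + 1), for each of the 75 cells, coloured by group. WT_P60 SCs gather at the upper right apart from 1 cell with 170 CPM of Gjb6. Most cells of the hair cell groups lie near the origin, and all have at most 1.59 CPM of Gjb6. Along the x axis, 1 WT_P30 OHC lies at 48.9 CPM of Gjb2 and nascent HCs reach 15.9 CPM. SCs failing to become HCs include 9 cells with both genes and 3 cells with only 1 of them.

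With edgeR's quasi-likelihood test across all genes and cells, both members that could be tested were lower in WT_P30 OHCs than in WT_P60 SCs. Calls required a Benjamini-Hochberg adjusted p below 0.001 together with a log2 fold change beyond 2 in size. Both were called lower, where 10.3% of the 11443 genes tested were. Both passed the filter through the WT_P60 SCs and failing SCs, since few cells of the hair cell groups had them. Members low in every group were not tested. Here and below, 2 of 2 called lower is therefore no enrichment over the share of all genes. The log2 fold change of Gjb2 was -7.91 (SE 1.42, adjusted p = 7.24e-06, edgeR), from 692 ± 250 CPM (SD, n = 16) to 2.88 ± 11.9 CPM (SD, n = 17), and that second mean comes from 1 cell. Gjb6 was at least 5011-fold lower in WT_P30 OHCs, taking the mean of 3 counts per library as the floor (adjusted p = 2.1e-13, edgeR), from 2222 ± 1050 CPM (SD, n = 16) to 0.

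Both connexins were also lower in the 2 induced groups classed as positive for Myo7a. In OHC-like cells 2 of 2 tested members were called lower than in WT_P60 SCs, where 0.655% of all genes tested were. Their means there, 0.215 CPM for Gjb2 and 0.113 CPM for Gjb6, were under the floor of 3 counts, so the folds are bounds: Gjb2 was at least 2066-fold lower (adjusted p = 9.26e-06, edgeR) and Gjb6 at least 6629-fold lower (adjusted p = 9.41e-09, edgeR). Of the 18 Gjb2 counts of the OHC-like cells, 16 were in 1 cell, OHC-like cell 1; without it, a refit chosen after seeing the data, both members remained called lower (adjusted p = 8.89e-07 and 3.43e-08, edgeR). In nascent HCs 2 of 2 were called lower, where 1.46% of all genes tested were. Here the log2 fold change of Gjb2 was -8.23 (SE 1.48, adjusted p = 1.52e-05, edgeR), and Gjb6, with a mean of 0.255 CPM, was at least 7999-fold lower (adjusted p = 1.7e-10, edgeR). No cell of either group overlapped the WT_P60 SCs for Gjb2 or Gjb6, and the share of all genes tested that separate in this way was not counted. These comparisons share the WT_P60 SCs, and fewer transcripts per cell cannot be told apart from fewer cells with transcripts in a group mean, except by the cell values given above.

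In SCs failing to become HCs neither connexin was called against WT_P60 SCs, where 0.787% of all genes tested were called lower. Gjb2 averaged 194 ± 229 CPM (SD, n = 15), 3.57-fold below the mean of the WT_P60 SCs, with a log2 fold change of -1.83 (SE 1.14, adjusted p = 0.474, edgeR). Gjb6 averaged 237 ± 368 CPM (SD, n = 15), 9.39-fold below, with a log2 fold change of -3.23 (SE 0.97, adjusted p = 0.0167, edgeR). The cells nevertheless lay low: 10 of 15 were below the lowest WT_P60 SC for Gjb2, and 9 of 15 for Gjb6. Without the 1 WT_P60 SC of 170 CPM, only 1 of 15 would reach the lowest of the remaining SCs for Gjb6. Myo7a was not absent from all failing SCs, and was called higher there than in WT_P60 SCs, at least 7.88-fold (adjusted p = 1.45e-07, edgeR). Failing SCs 2, 7 and 15 had 28, 2.25 and 18.9 CPM of Myo7a. Failing SCs 2 and 7 had under 1 CPM of both connexins, while failing SC 15 had 426 CPM of Gjb2 and 272 CPM of Gjb6. For the connexins, the call against WT_P60 SCs depended on the test. limma-trend on log CPM called both lower, at log2 fold changes of -4.43 (adjusted p = 0.000226) and -6.63 (adjusted p = 8.4e-09). A 2-sided permutation test of log2(CPM + 1) over the cells, chosen after seeing the data, gave differences of -3.93 (p = 2e-05) for Gjb2 and -5.99 (p = 1e-05, the smallest that 100000 resamples can give) for Gjb6. A p that misses the threshold in edgeR therefore does not show that failing SCs kept the level of WT_P60 SCs.

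Among the SCs failing to become HCs, the total count moved with both genes over the 15 cells (Spearman's rho 0.54 for Gjb2 and 0.76 for Gjb6), as did the number of genes detected (0.37 and 0.54). The rho between Gjb2 and Gjb6 was 0.69 in these cells and 0.22 in the 16 WT_P60 SCs. With Atoh1 the rho was -0.18 for Gjb2 and -0.29 for Gjb6, and with Ikzf2 0.45 and 0.036. These are descriptions over cells that share library series, and the part of depth was not tested in them. When all cells were thinned to the smallest total, the log2 fold changes against WT_P60 SCs were -1.84 for Gjb2 and -3.27 for Gjb6, close to those at full depth. Random thinning evens the totals but leaves the expected CPM of a gene unchanged. These values therefore cannot show what part depth or library quality had.

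Directly against the SCs failing to become HCs, both connexins were lower in OHC-like cells and in nascent HCs. In OHC-like cells 2 of 2 were called lower, where 0.0524% of all genes tested were. Gjb2 was at least 579-fold lower (adjusted p = 0.000291, edgeR) and Gjb6 at least 706-fold lower (adjusted p = 2.5e-06, edgeR). In nascent HCs 2 of 2 were called lower, where 0.402% were. The log2 fold change of Gjb2 was -6.39 (SE 1.37, adjusted p = 0.000944, edgeR), and Gjb6 was at least 852-fold lower (adjusted p = 1.62e-07, edgeR). The groups overlapped in both comparisons, since 4 of 15 failing SCs had under 1 CPM of Gjb2 and 5 of 15 under 1 CPM of Gjb6.

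The libraries of the induced cells were grouped in 5 series, called A to E here, which the sample titles and column names do not show. Series C held 10 of the 15 failing SCs and 1 nascent HC, and series B and D held no failing SC, so series and cell type are partly the same. With series as a term, no member was called in either comparison. The log2 fold change of Gjb2 in nascent HCs was then -6.05 (adjusted p = 0.622, edgeR), against -6.39 without the term. The others had means under the floor, so their fitted values are no measure of size. With the term these were -10.89 for Gjb2 and -13.15 for Gjb6 in OHC-like cells (adjusted p = 0.027 and 0.0131, edgeR). In nascent HCs the value for Gjb6 was -12.24 (adjusted p = 0.00207, edgeR). Without the term they were -9.79, -10.75 and -9.74. What part library series had was not tested. Within series A, C and E, which held both kinds, OHC-like cells and nascent HCs together (n = 9) minus failing SCs (n = 15) gave -5.22 on the log2(CPM + 1) scale for Gjb2 in a 2-sided exact permutation test (p = 0.0121) and -4.73 for Gjb6 (exact p = 0.0173). The differences were -2.95, -5.69 and -8.24 for Gjb2 in series A, C and E, and -2.02, -5.53 and -8.09 for Gjb6, each pointing the same way. Series A set 2 such cells against 4 failing SCs, series C 1 against 10 and series E 6 against 1. The differences in C and E therefore each rest on 1 cell on one side. Gja1 and Panx1 had counts in 2 of these cells each, too few to test, and Gjc3, Gjb1 and Panx2 had none.

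The low Gjb6 counts of the hair cell groups came mostly from 1 library series. In series D, 6 of 7 OHC-like cells and nascent HCs had at least 1 count of Gjb6, at most 1.59 CPM, against 1 of 20 in the other 4 series, at most 0.144 CPM. For Gjb2 these numbers were 6 of 7 and 6 of 20. Series D held no failing SC or WT cell, so what these few counts came from was not tested.

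Between OHC-like cells and nascent HCs, neither connexin was called. The adjusted p was 0.647 for Gjb2 and 1 for Gjb6 (edgeR), where 0.0787% of all genes were called in either direction. Gjb2 averaged 2.29 CPM in nascent HCs, at least 6.84-fold above OHC-like cells. That mean came mostly from 3 of the 16 nascent HCs, at 15.9, 13.9 and 4.67 CPM, and their median was 0.125 CPM. For Gjb6 both means were under the floor. Any count of Gjb2 was found in 9 of 16 nascent HCs and 3 of 11 OHC-like cells, and any count of Gjb6 in 5 of 16 and 2 of 11. Nor was either called between OHC-like cells and WT_P30 OHCs, where 10.6% of all genes were. For Gjb2 no direction is given (adjusted p = 0.057, edgeR), since the mean of the OHC-like cells was under the floor and that of the WT_P30 OHCs came from the 1 cell at 48.9 CPM. For Gjb6 both means were under the floor, and no fold change is given. Ordered by mean, Gjb2 ran from WT_P60 SCs (692 CPM) through failing SCs (194), WT_P30 OHCs (2.88) and nascent HCs (2.29) to OHC-like cells (0.215). Of neighbours in this order, WT_P60 SCs and failing SCs were not called different, nor were nascent HCs and OHC-like cells. WT_P30 OHCs were not compared with failing SCs or nascent HCs.

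**Figure D4:**
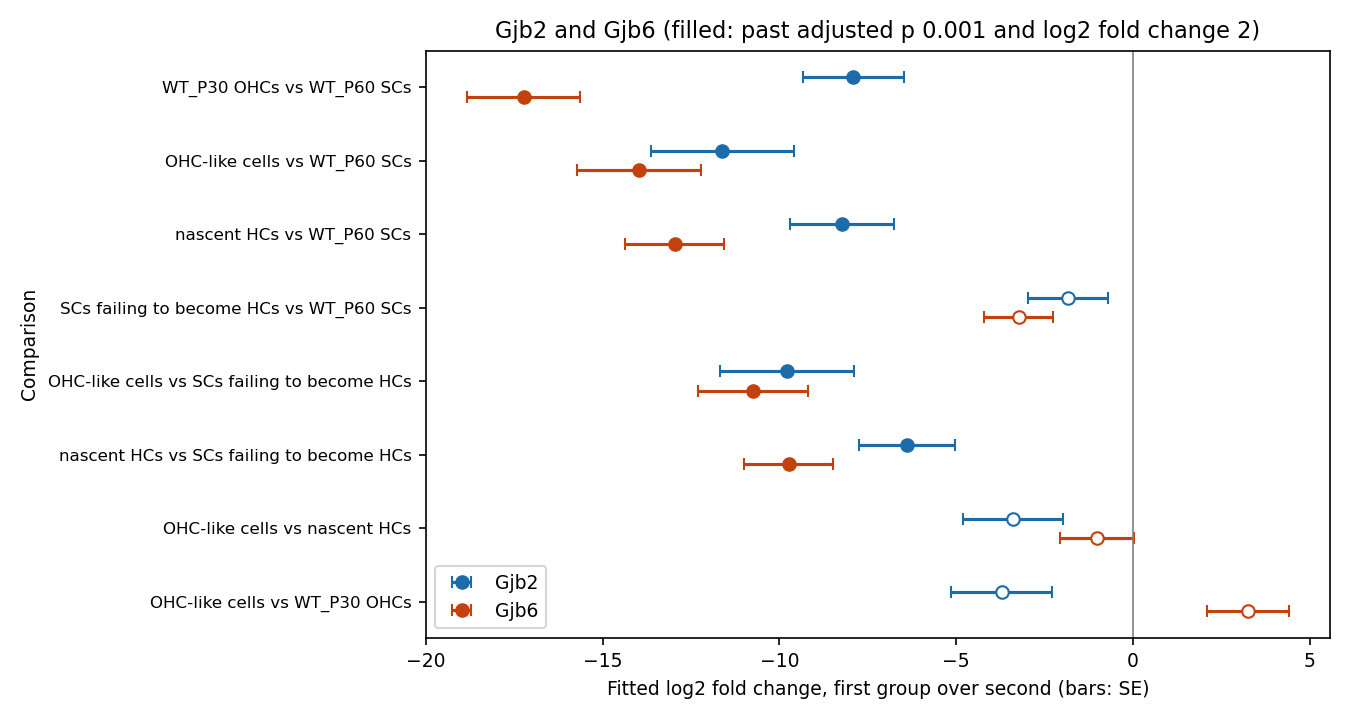
Fitted log2 fold change (x axis, first group over second, bars are the SE) of Gjb2 and Gjb6 in the 8 comparisons (y axis), with filled symbols for those past both thresholds. Filled symbols stand in the 3 comparisons of hair cell groups with WT_P60 SCs and in both comparisons with SCs failing to become HCs; the values are no measure of size where the lower group was under the floor of 3 counts, which holds for all Gjb6 values but that of failing SCs against WT_P60 SCs and for the Gjb2 values of OHC-like cells.

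The genes that act with the connexin network did not move as one. Of 8 genes for potassium and glucose uptake in SCs, 2 were called lower in WT_P30 OHCs than in WT_P60 SCs and none higher, with a median log2 fold change of -1.36 against -0.16 over all genes tested. Over all genes tested, 10.3% were called lower and 4.96% higher in WT_P30 OHCs, 0.655% and 5.77% in OHC-like cells, 1.46% and 6.31% in nascent HCs, and 0.787% and 3.38% in failing SCs. In OHC-like cells 1 was called lower and 1 higher (median -0.63 against 0.32), in nascent HCs 0 and 1 (-0.42 against 0.34), and in failing SCs 1 and 1 (0.67 against 0.25). The gene called higher was Slc1a3 each time, a glutamate transporter on this list. No potassium or glucose gene of the list was called higher. Kcnj10, the inward rectifier Kir4.1 that takes up potassium in SCs, had a lowest, median and highest level of 82.7, 433 and 913 CPM in WT_P60 SCs. It had no count in any OHC-like cell or WT_P30 OHC, at least 1267-fold and at least 958-fold lower. In failing SCs it was detected in 1 of 15 cells, at 18.9 CPM, with a log2 fold change of -8.39 (SE 1.74, adjusted p = 0.000413, edgeR). Among nascent HCs, 2 of 16 had it, up to 65.0 CPM, and it was not called (log2 fold change -6.51, adjusted p = 0.00126, edgeR). In the failing SCs, then, Kcnj10 was called lower than in WT_P60 SCs while Gjb2 and Gjb6 were not; the difference between these genes was not tested.

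Kcnj16, the partner channel Kir5.1, averaged 998 ± 293 CPM in WT_P60 SCs (SD, n = 16) and was detected in 11 of 15 failing SCs, 7 of 16 nascent HCs, 1 of 11 OHC-like cells and 1 of 17 WT_P30 OHCs. It was called lower in WT_P30 OHCs, at least 2250-fold (adjusted p = 2.27e-07, edgeR), and not in the induced groups. In OHC-like cells its level of 331 CPM in OHC-like cell 1 stood against at most 0.224 CPM in the other 10, and without that cell it was called lower (adjusted p = 2.38e-07, edgeR, against 0.0255 with it). Slc1a3, the glutamate transporter GLAST, was called higher than in WT_P60 SCs in all 3 induced groups, from no count in a WT_P60 SC or WT_P30 OHC to 7 of 15 failing SCs, 5 of 16 nascent HCs and 2 of 11 OHC-like cells. The call in OHC-like cells rested on OHC-like cell 1, with 565 CPM. Without that cell the highest level was 1.33 CPM, the mean 0.155 CPM, and Slc1a3 was not called (adjusted p = 0.136, edgeR, against 0.000533 with it).

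Of the 12 genes for connexin scaffolds, adhesion and trafficking, 11 were tested. The shares of all genes called lower, for comparison, were 10.3% in WT_P30 OHCs, 0.655% in OHC-like cells, 1.46% in nascent HCs and 0.787% in failing SCs, and those called higher 4.96%, 5.77%, 6.31% and 3.38%. Against WT_P60 SCs, 3 were called lower and none higher in WT_P30 OHCs (median log2 fold change 0.29 against -0.16 over all genes), 2 lower and none higher in OHC-like cells (1.51 against 0.32), 2 lower and 2 higher in nascent HCs (0.90 against 0.34), and 1 lower and 1 higher in failing SCs (0.82 against 0.25). Cav1 and Cav2, the caveolins with which connexins have been found to associate, were in all 16 WT_P60 SCs, at 142 to 1222 and 491 to 2322 CPM. Cav1 was absent from all failing SCs, at least 1477-fold lower, and from all WT_P30 OHCs, at least 1402-fold lower. In nascent HCs it had 1 count in 16 cells and was called lower. In OHC-like cells its log2 fold change was -10.44 (SE 1.26, adjusted p = 1.56e-08, edgeR). Cav2 was detected in 7 of 15 failing SCs, where it was not called, and was called lower in the 3 hair cell groups. Cdh1, the epithelial cadherin, averaged 89.5 ± 69.1 CPM in WT_P60 SCs (SD, n = 16), had no count in WT_P30 OHCs (at least 202-fold lower), and rose to 504 ± 434 CPM in nascent HCs (SD, n = 16), a log2 fold change of 2.49 (SE 0.54, adjusted p = 0.000298, edgeR). It was not called in OHC-like cells (log2 fold change 2.19, adjusted p = 0.00284, edgeR) or in failing SCs (1.43, adjusted p = 0.0734, edgeR).

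Extracellular ATP released through hemichannels and pannexins acts on purinergic receptors, of which, with the enzymes that break ATP down, 12 genes were listed and 4 tested. Against WT_P60 SCs, 1 was called lower in WT_P30 OHCs (median log2 fold change -0.79 against -0.16 over all genes), none was called in OHC-like cells (-1.75 against 0.32), and 1 was called higher in nascent HCs (-0.79 against 0.34) and in failing SCs (1.46 against 0.25). Over all genes tested, 10.3% were called lower in WT_P30 OHCs, 0.655% lower in OHC-like cells, and 6.31% and 3.38% higher in nascent HCs and failing SCs. The gene called lower was P2ry2, a receptor for ATP and UTP, which was detected in 7 of 16 WT_P60 SCs and had no count in WT_P30 OHCs, at least 54.1-fold lower. In OHC-like cells it was in OHC-like cell 1 alone, at 23.1 CPM, and without that cell it was called lower (adjusted p = 0.000702, edgeR, against 0.302 with it). The gene called higher was P2ry1, an ADP receptor, with no count in any WT cell or OHC-like cell. It reached 88.6 CPM in nascent HCs, 4 of 16 of which had it, and 9 of 15 failing SCs had it, with a median of 10.8 CPM over all 15.

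**Figure D5:**
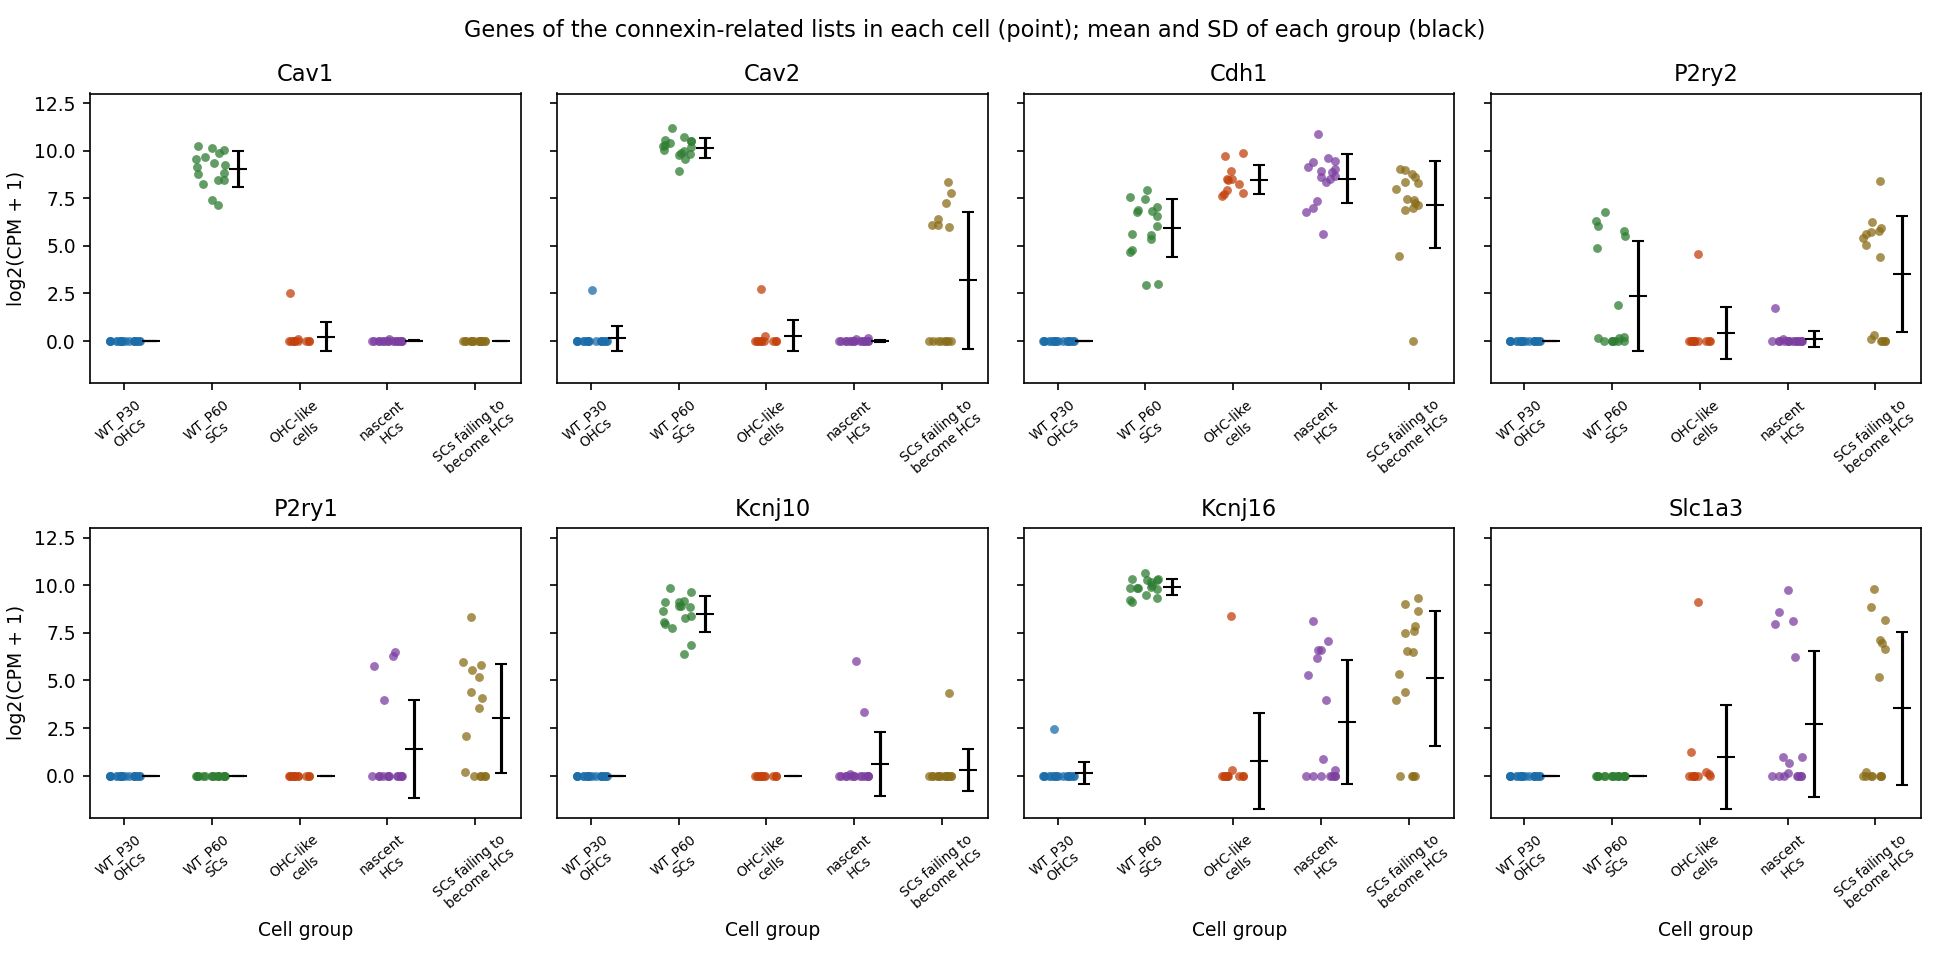
Levels as log2(CPM + 1) (y axis) in each of the 75 cells (points) of 8 genes of the lists on scaffolds, purinergic receptors and ion uptake, by cell group (x axis), with the mean and SD of each group in black. Cav1, Cav2, Kcnj10 and Kcnj16 are in all 16 WT_P60 SCs, while P2ry1 and Slc1a3 have no count there and appear in some induced cells.

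The genes most like the 2 connexins over the 75 cells were sought by Pearson's r of log2(CPM + 1) among the tested genes. No tested gene was closer to Gjb2 than Gjb6 was (r = 0.912). After it came Mal, a proteolipid of apical membranes and myelin, Gm16136 and Mpzl2, an adhesion protein, with r of 0.911, 0.911 and 0.889. For Gjb6 they were Mal (0.888), Pllp (0.882) and Il17re (0.867). Mal was in 16 of 16 WT_P60 SCs at 820 ± 275 CPM (SD, n = 16), in 9 of 15 failing SCs, and in 1 of 16 nascent HCs, 1 of 11 OHC-like cells and no WT_P30 OHC. These r are descriptions, since the cells fall into 5 groups of different level. Gja1 had counts in 3 cells and Gjb1 in none, so no like genes are given for them.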

How the data were processed

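Single cells were sequenced by Smart-Seq. Per the labels and the methods of the study, the authors checked reads with FastQC 0.11.9, trimmed them with Trimmomatic 0.39, aligned them to GRCm38 with HISAT2 2.1.0 and deposited HTSeq 0.10.0 read counts per gene. The strand setting and annotation release are not given in the sources used here. The WPRE vector element (0.0254% of counts) was left out. Counts were tested with edgeR 4.0.16 (glmQLFit, TMM, 5 groups in 1 fit, filterByExpr with a minimum count of 10, 11443 of 55291 genes kept), with Benjamini-Hochberg adjustment; the sizes of the thresholds (0.001, log2 fold change 2) follow the study, whose text names p and not an adjusted p; here 0.001 was set on the adjusted p. The study's own test, DESeq2, is an alternative. TPM used GENCODE M21 exon lengths. R 4.3.3, limma 3.58.1, DESeq2 1.42.0, Python 3.11.15 and scipy 1.17.1 were used, and the tests were checked on simulated data. Named genes were the 7 members, other family genes detected in 3 or more cells, at most 3 called genes of each list, and the 3 genes most like each of Gjb2 and Gjb6. Members and lists were chosen with earlier results of these data known. Some listed genes are not reported here.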

Additional observations from a re-analysis of the deposited data

How the results depend on the processing

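Of 164 refitted log2 fold changes of Gjb2 and Gjb6, 151 kept direction and call, 7 lost the call, 4 gained it and 2 turned round. Both members stayed called lower in WT_P30 OHCs, OHC-like cells and nascent HCs against WT_P60 SCs in every alternative run. For failing SCs against WT_P60 SCs, 0 members were called, 2 with limma-trend and 1 (Gjb6) at an adjusted p of 0.05 and a log2 fold change of 1. Against failing SCs, 0 were called in OHC-like cells and 0 in nascent HCs with library series as a covariate or with only the 2 groups in the fit, where 1 member passed the filter, and 1 in nascent HCs with no filter on low counts. With only the 2 groups the fitted Gjb2 value was -9.81 in OHC-like cells (adjusted p = 0.00211, edgeR) and -6.43 in nascent HCs (adjusted p = 0.0177, edgeR), against -9.79 and -6.39. With the looser thresholds 1 (Gjb6) was called between OHC-like cells and WT_P30 OHCs. The cause was not tested. Scaling by DESeq2 size factors moved the median of all genes by -0.22 to 0.00.

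Replicate numbers do not pair the cells: the 137 same-numbered pairs had a mean correlation of -0.00175 (-0.146 to 0.178). With the replicate block, Gjb2 between OHC-like cells and WT_P30 OHCs was 1.42 in place of -3.71 and uncalled in both; no count of members called changed. Without WT_P30 OHC 13, the 1 cell of its group with Gjb2, that value was 3.94 (adjusted p = 0.0146, edgeR), and without OHC-like cell 1 it was -6.42 (adjusted p = 0.00227, edgeR), uncalled in both, so this comparison has no settled direction. Without OHC-like cell 4, OHC-like cell 1 or WT_P30 OHC 13, the last 2 chosen after seeing the data, no call of a member changed. Every within-series difference of Gjb2 and Gjb6 kept its direction and side of 0.05 with pseudocounts of 0.1 and 10. Taking any count or 5 CPM as detection moved 11 of 30 numbers of cells. In failing SCs, Gjb2 went from 11 cells to 13 with any count. Gjb6 went from 10 to 12 with any count and to 9 at 5 CPM. The other moves were where at most 3 cells had 1 CPM. For the 5 members with few or no counts, the part of depth and capture was not tested.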

Other observations

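The genes beside the connexin pair on chromosome 14 were examined after the other results had been seen. Within 200 kb, Gja3 (connexin 46, a lens connexin) had no count in any of the 75 cells. Cryl1, at 57274993 to 57398529 on the same strand, was detected in 8 of 16 WT_P60 SCs (28.5 ± 36.7 CPM, SD, n = 16), 4 of 15 SCs failing to become HCs, 2 of 16 nascent HCs, no OHC-like cell and no WT_P30 OHC. Of the comparisons with WT_P60 SCs it was called lower in WT_P30 OHCs (adjusted p = 7.54e-05, edgeR) and not in the induced groups, where the adjusted p was 0.00168 in OHC-like cells, 0.432 in nascent HCs and 0.664 in failing SCs. Zmym2, on the other side of the pair, was detected in 9 of 16 WT_P60 SCs and 16 of 16 nascent HCs and was called in none of the 8 comparisons, with adjusted p between 0.677 and 1.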
